A study of Mus musculus with 18 samples.

Results

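A set of 6 genes was followed across sorted mouse cells: Moxd1, Pcsk1, Slc15a1, Muc13, Tgm2 and Atp8b4. They had been picked because their signal was lower in the DN3 than in the DN1 fraction of a T cell lymphoma, so that fall is a description here and carries no p value. They are 6 of the 22180 genes that have a probe set with a single symbol, and each has 1 such probe set. The study measured RNA from 18 samples on Affymetrix arrays, 3 in each of 6 groups. Fractions named DN1, DN2, DN3, DN4 and CLP were sorted from lymphomas taken out of the thymus of moribund Lck-Cre transgenic mice, of which the design text names 3. These mice had been irradiated below the lethal dose and given bone marrow carrying retroviral NPM-ALK, an oncogenic kinase fusion known from anaplastic large cell lymphoma, whose expression the Cre, driven by the T cell promoter Lck, places in early T cells. Healthy LSK cells came from bone marrow of mice labelled wildtype and 18 months old, so LSK and lymphoma also differ in tissue and in what the mice underwent. DN1 to DN4 name successive double-negative stages of thymocytes that lack CD4 and CD8, CLP the common lymphoid progenitor, and LSK the stem and early progenitor cells of the marrow. Titles assign the groups here, because the description fields speak of NIPA knockout or wild-type mice and, for 12 arrays, of 4 Gy, against what titles and genotypes say. The labels do not say whether arrays with 1 replicate number come from 1 animal, so p values measure the spread between these samples.

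The 6 genes belong to no common pathway. Moxd1 is a homologue of dopamine beta-hydroxylase, a copper enzyme, and Pcsk1 is prohormone convertase 1/3, which cuts hormone precursors in the secretory granules of neuroendocrine cells. Slc15a1 is PEPT1, the proton-coupled carrier of di- and tripeptides in the small intestine. Muc13 is a membrane mucin of gut epithelium that is also known as a surface antigen of blood progenitors. Tgm2 is tissue transglutaminase, which crosslinks proteins in a calcium-dependent way, and Atp8b4 is a P4-ATPase, a family that moves phospholipids between membrane leaflets. In the normal thymus, DN1 and DN2 cells still carry KIT and CD44, and cells that reach DN3 have lost both and are committed to the T lineage.

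All values are log2 RMA signals (a background-corrected, quantile-normalised and summarised probe set brightness), and a difference of 1 is a 2-fold difference in signal. In samples of bulk RNA, fewer cells of a type and less RNA per cell cannot be told apart. Olfactory receptor genes, largely silent in blood cells, gave a gauge of background: the 95th percentile of 1105 such genes lay between 5.36 and 5.71 on the 18 arrays. Differences that reach below it depend on the floor of the probe set. Sort marker RNA was read as a check of the labels and is no finding. Mean Kit was 10.77 (DN1), 10.68 (DN2), 8.06 (DN3), 8.20 (DN4), 9.43 (CLP) and 10.90 (LSK). Mean Cd44 was 6.64 (DN1), 5.95 (DN2), 4.67 (DN3), 4.70 (DN4), 4.81 (CLP) and 7.36 (LSK), with every DN3, DN4 and CLP array below the gauge. Mean Il2ra, which encodes CD25, was 9.04 (DN1), 11.81 (DN2), 12.02 (DN3), 8.71 (DN4), 8.31 (CLP) and 9.62 (LSK). It was thus higher in LSK than in DN1, DN4 and CLP. Mean Il7r, the IL-7 receptor, was 9.75 (DN1), 8.64 (DN2), 8.86 (DN3), 8.51 (DN4), 7.99 (CLP) and 6.10 (LSK). Among the lymphoma fractions Il7r was thus lowest in the one named CLP. Cd3e, a chain of the T cell receptor complex, averaged 12.18 to 12.92 in the 5 lymphoma fractions and 5.09 in LSK. Cd34, a stem and progenitor antigen, averaged 5.00 to 5.24 in the lymphoma fractions, below the gauge, and 11.10 in LSK.

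Moxd1 and Pcsk1, enzymes of the secretory pathway, were bright in DN1 and DN2 and not told apart from background in DN3, DN4 and LSK. Moxd1 (probe set 17232215, chromosome 10) read 11.66, 11.70 and 11.72 on the DN1 arrays, 9.95, 9.95 and 9.98 in DN2, 4.39, 4.92 and 4.90 in DN3, 4.76, 4.87 and 4.66 in DN4, 6.67, 4.94 and 6.51 in CLP, and 4.26, 4.35 and 4.32 in LSK. It stood far above background in DN1 and DN2, below the gauge on every DN3, DN4 and LSK array, and above it on 2 of 3 CLP arrays. Pcsk1 (probe set 17288677, chromosome 13) read 10.61, 10.27 and 10.54 in DN1, 8.50, 8.53 and 8.69 in DN2, 4.30, 4.33 and 4.74 in DN3, 4.32, 4.42 and 4.77 in DN4, 4.90, 6.57 and 6.14 in CLP, and 3.85, 4.11 and 4.36 in LSK. It too was below the gauge in DN3, DN4 and LSK, and these 3 groups overlapped, whereas the LSK arrays of Moxd1 lay below those of DN3 and DN4. The CLP arrays were not alike for these genes: array 1 had the highest Moxd1 and the lowest Pcsk1 of the 3, and array 2 had the lowest Moxd1 and the highest Pcsk1. Their SD in CLP was 0.956 for Moxd1 and 0.865 for Pcsk1, against at most 0.302 for Moxd1 and 0.255 for Pcsk1 in the other groups.

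The peptide carrier kept a measurable level throughout the lymphoma. Slc15a1 (probe set 17309557, chromosome 14) read 10.78, 10.86 and 10.81 in DN1, 9.82, 9.79 and 9.87 in DN2, 7.46, 7.61 and 7.13 in DN3, 7.35, 7.39 and 7.53 in DN4, 8.79, 9.14 and 9.14 in CLP, and 4.55, 4.49 and 4.35 in LSK. All 15 lymphoma arrays lay above the gauge and all 3 LSK arrays below it. The order was DN1, DN2, CLP, then DN4 and DN3, which overlapped, and LSK.

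The remaining genes were also high in healthy LSK cells. Muc13 (probe set 17325093, chromosome 16) read 10.98, 11.03 and 10.95 in DN1, 10.42, 10.46 and 10.11 in DN2, 7.13, 6.88 and 6.55 in DN3, 7.09, 6.65 and 6.95 in DN4, 8.39, 8.64 and 8.57 in CLP, and 11.05, 10.82 and 10.55 in LSK. Its LSK values overlapped those of DN1 and lay above those of every other fraction. Tgm2 (probe set 17393789, chromosome 2) read 10.34, 10.65 and 9.99 in DN1, 9.27, 9.58 and 9.26 in DN2, 6.61, 6.79 and 6.26 in DN3, 6.43, 6.32 and 6.43 in DN4, 7.66, 7.99 and 7.62 in CLP, and 9.83, 9.92 and 9.51 in LSK. LSK stood between DN1 and DN2 and overlapped DN2. Atp8b4 (probe set 17391056, chromosome 2) read 8.62, 8.13 and 8.65 in DN1, 7.62, 7.39 and 7.45 in DN2, 5.09, 5.18 and 5.33 in DN3, 4.89, 5.01 and 5.01 in DN4, 5.52, 5.61 and 5.77 in CLP, and 7.81, 7.85 and 7.18 in LSK. Here LSK overlapped DN2, the DN3 and DN4 arrays were below the gauge, and 1 of 3 CLP arrays was above it.

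**Figure D1:**
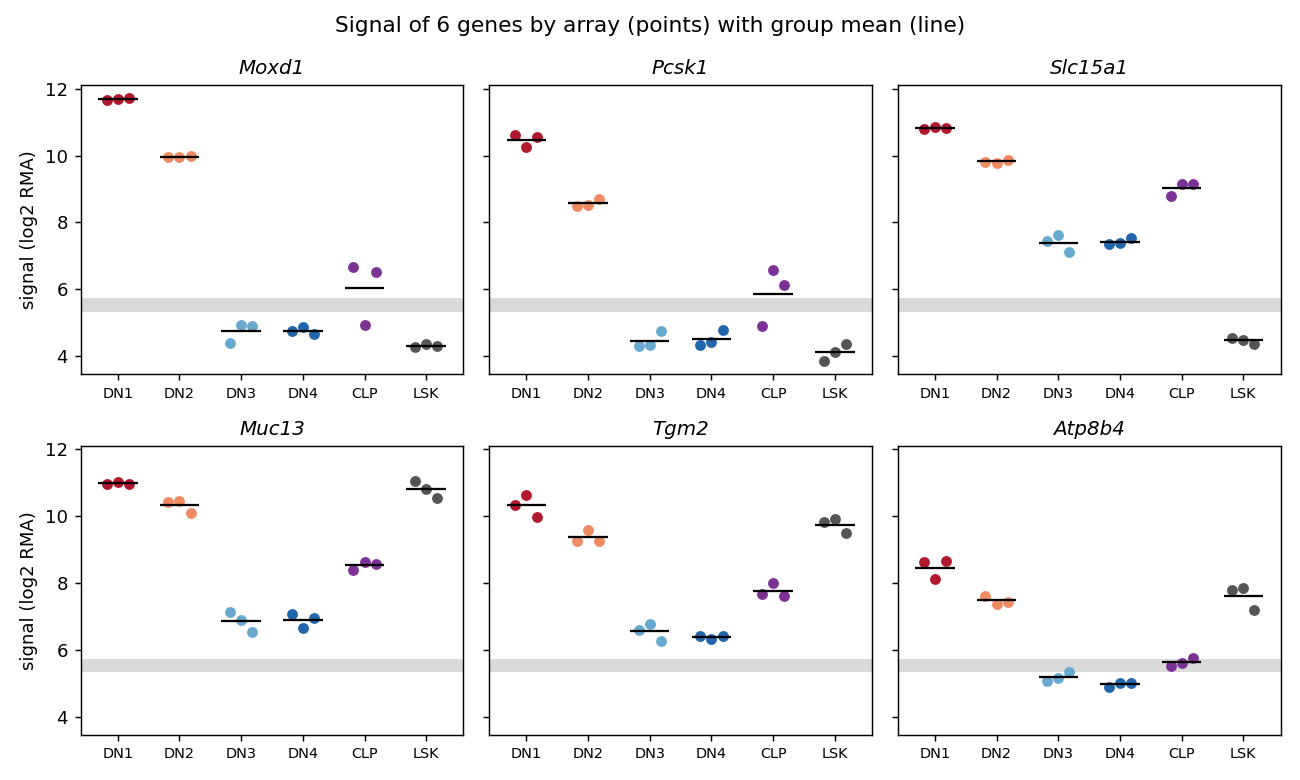
The log2 RMA signal (vertical axis) of each gene on every array (points) of the 6 groups (horizontal axis), with the group mean as a line; the grey band is the range over arrays of the olfactory receptor gauge, 5.36 to 5.71. In each panel DN1 is highest or level with LSK and CLP lies between DN2 and the DN3 and DN4 arrays, whereas LSK is at the bottom for Moxd1, Pcsk1 and Slc15a1 and near DN1 and DN2 for Muc13, Tgm2 and Atp8b4.

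Set against healthy LSK cells, the genes thus formed 3 that lay below the gauge on all LSK arrays (Moxd1, Pcsk1 and Slc15a1) and 3 that lay above it on all LSK arrays (Muc13, Tgm2 and Atp8b4). The 6 had been grouped under the label ectopic, yet RNA of Muc13, Tgm2 and Atp8b4 was measured in the healthy LSK cells of this series. The series holds no healthy DN1 to DN4 thymocytes, so whether the label holds at these T cell stages was not tested for any of the 6. In DN1 minus LSK, Moxd1 differed by 7.38, Pcsk1 by 6.37 and Slc15a1 by 6.35, against 0.18 for Muc13, 0.57 for Tgm2 and 0.85 for Atp8b4. These values belong to the description, since DN1 arrays chose the genes.

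The fall had the same shape in each gene, with a smaller step from DN1 to DN2 and a larger one from DN2 to DN3. Moxd1 fell by 1.73 and then by 5.22, and Pcsk1 by 1.90 and then by 4.12, the second step in both ending below the gauge. Muc13 fell by 0.66 and then by 3.47, so that 15.9% of its log2 fall was reached at DN2. Slc15a1 fell by 0.99 and then fell by 2.43, Tgm2 fell by 0.96 and then fell by 2.82, and Atp8b4 fell by 0.98 and then fell by 2.29. In these 3 genes the DN2 cells kept 50.4% to 51.5% of the DN1 signal on the linear scale. The share of the log2 fall reached at DN2 was 29% for Slc15a1 and 25.4% for Tgm2. For Moxd1, Pcsk1 and Atp8b4, whose DN3 arrays were below the gauge, the share depends on the floor and is at most 24.9%, 31.6% and 30.1%. In DN3, the signal was 10.7-fold below that of DN1 for Slc15a1, 17.5-fold for Muc13 and 13.7-fold for Tgm2. These steps are the values the genes were picked on, and in DN3 against DN1 2.77% of all 22180 genes were called lower and 3.92% higher by limma at an adjusted p under 0.05.

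**Figure D2:**
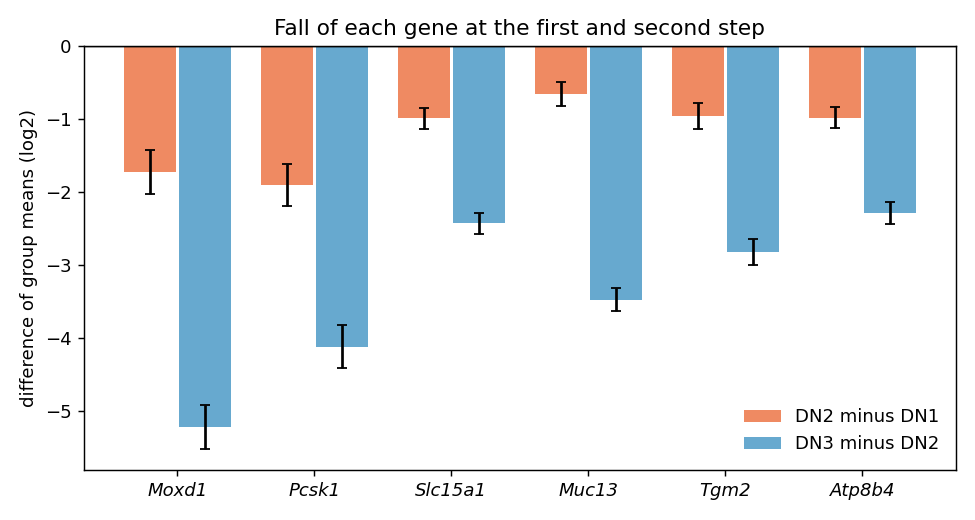
Difference of group means (log2, vertical axis) for each gene, DN2 minus DN1 in orange and DN3 minus DN2 in blue, with the limma standard error from the 15 lymphoma arrays as error bars. Every blue bar is longer than its orange neighbour, with Moxd1 at -5.22 against -1.73 and Muc13 at -3.47 against -0.66.

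After DN3 the genes stayed down. DN4 minus DN3 was within 0.23 log2 units for all 6, and limma called none of them (0 of 6 also at an unadjusted p under 0.05). The 95% interval of the difference ran from -0.62 to 0.67 for Moxd1, -0.57 to 0.66 for Pcsk1, -0.27 to 0.32 for Slc15a1, -0.30 to 0.39 for Muc13, -0.53 to 0.22 for Tgm2 and -0.54 to 0.08 for Atp8b4. Atp8b4 was the single gene whose DN4 arrays did not overlap the DN3 arrays, at 4.97 against 5.20, both below the gauge, and 6.85% of all genes were without overlap in that direction. In this comparison 0.00451% of all genes were called, which is the single gene Il2ra, the CD25 sort marker, named after its value was seen. DN3 arrays had taken part in the choice of the 6 genes, whereas that choice, as it was stated, did not involve DN4.

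The CLP fraction held more of these transcripts than DN4. Neither group is in the DN1 to DN3 contrast, but limma told DN4 and DN3 apart in only 0.00451% of all genes. Low DN4 values thus largely came with the choice for low DN3 values, and the calls below are not independent of that choice. Of the 6 genes, 5 were called higher in CLP and none lower, where 0.347% of all genes were called higher and 0.721% lower. The median difference was 1.36 over the 6 genes and 0.01 over all genes. Slc15a1 averaged 9.02 ± 0.205 in CLP and 7.42 ± 0.0927 in DN4 (SD, n = 3 each), a log2 difference of 1.60 (SE 0.141, limma adjusted p = 1.83e-05). Muc13 averaged 8.53 ± 0.13 in CLP and 6.90 ± 0.225 in DN4 (1.63, SE 0.162, limma adjusted p = 6.64e-05). Tgm2 averaged 7.76 ± 0.204 in CLP and 6.40 ± 0.0624 in DN4 (1.36, SE 0.178, limma adjusted p = 0.000914). These 3 genes kept the call under each of the 13 alternatives, with adjusted p values up to 0.0222. Kit, a sort marker, also was higher in CLP than in DN4 (1.24, limma adjusted p = 0.000551), and so was the mast cell protease Cpa3, at 10.18 in CLP and 8.61 in DN4 (1.57, limma adjusted p = 0.0116). Cpa3 was the 1 gene called among 10 granulocyte and mast cell markers, whose summed log2 signal was 10.07 to 11.05 in CLP and 9.52 to 9.58 in DN4. Of these markers, Mpo, S100a8, S100a9, Mcpt8 and Ms4a2 were below the gauge on every array of both. Cpa3, Prtn3 and Gata1 were above it on every array of both, and Elane on every DN4 array. The part of these genes in the differences of the 6 was not tested.

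The calls for the other genes were less firm. Pcsk1 averaged 5.87 in CLP and 4.50 in DN4 (1.37, SE 0.289, limma adjusted p = 0.0312), and Atp8b4 5.63 in CLP and 4.97 in DN4 (0.66, SE 0.147, limma adjusted p = 0.0387). Moxd1 averaged 6.04 in CLP and 4.76 in DN4 and missed the threshold (1.27, SE 0.304, limma adjusted p = 0.0538, 95% interval 0.63 to 1.92), although the arrays of the groups did not overlap for any of the 6 genes, as for 7.37% of all genes in this direction. The DN4 levels of these 3 lay below the gauge. With the 6 arrays of the compared groups alone, limma gave adjusted p = 0.284 for Pcsk1, 0.199 for Atp8b4 and 0.349 for Moxd1. Pcsk1 lost its call without CLP array 2 (0.0903), CLP array 3 (0.0613) or DN4 array 1, 2 or 3 (0.152, 0.129 and 0.0633). Atp8b4 lost it without the same arrays (0.0689, 0.0765, 0.171, 0.123 and 0.118), with the trended robust prior (0.0507) and in a model of all 18 arrays (0.0602). Moxd1 passed without CLP array 2 (3.28e-05), with the filter on low values (0.0397) and in the model of all 18 arrays (0.0306).

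CLP also lay above DN3, without overlap in any of the 6 genes, as did 6.33% of all genes. These differences are a description, with no test, since the genes had been picked for low DN3 values. They were 1.62 for Slc15a1, 1.68 for Muc13, 1.20 for Tgm2, 1.41 for Pcsk1, 1.30 for Moxd1 and 0.43 for Atp8b4. Relative to DN1 on the linear scale, the CLP signal was 28.8% for Slc15a1, 18.3% for Muc13 and 16.9% for Tgm2, whose CLP arrays were all above the gauge.

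**Figure D3:**
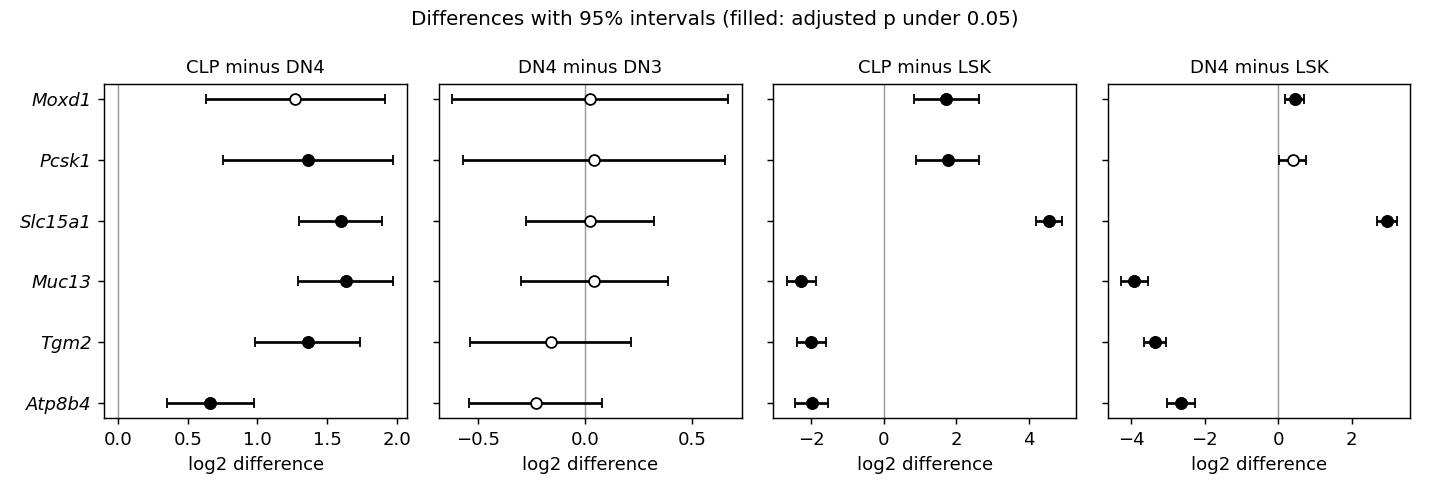
Log2 differences (horizontal axes, a scale of its own in each panel) of the 6 genes (vertical axis) with 95% intervals from limma; filled points have an adjusted p under 0.05. CLP minus DN4 lies between 0.66 and 1.63, every DN4 minus DN3 interval includes 0, and the differences from LSK are positive for Moxd1, Pcsk1 and Slc15a1 and negative for Muc13, Tgm2 and Atp8b4.

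Against healthy LSK cells, CLP and DN4 went opposite ways for the genes below the gauge in LSK and those above it. Both comparisons share the LSK arrays, and their low or high LSK values were known when the genes were picked. Slc15a1 averaged 9.02 in CLP and 4.47 in LSK (4.56, SE 0.161, limma adjusted p = 7.81e-07), and 7.42 in DN4 against that LSK level (2.96, SE 0.121, limma adjusted p = 1.23e-08). Since LSK is below the gauge, these differences depend on the floor. Muc13 fell to 8.53 in CLP (-2.27, SE 0.173, adjusted p = 2.97e-05) and to 6.90 in DN4 (-3.90, SE 0.162, adjusted p = 1.31e-08), against 10.80 in LSK. Tgm2 was lower by 3.99-fold in CLP (limma adjusted p = 7.58e-05) and 10.3-fold in DN4 (1.15e-08) than in LSK. Atp8b4 was lower in CLP (-1.98, adjusted p = 0.000181) and in DN4 (-2.64, adjusted p = 4.73e-07). The calls of these 4 genes against LSK held under each alternative run.

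The calls of Moxd1 and Pcsk1 against LSK were less firm. Moxd1 was called higher in CLP (1.73, SE 0.397, limma adjusted p = 0.0164), a call lost without CLP array 3 (0.0505) or LSK array 1, 2 or 3 (0.0663, 0.0572 and 0.0595). Pcsk1 was called in CLP (1.76, SE 0.376, limma adjusted p = 0.0118) and lost that call without LSK array 1 (0.0587). In DN4 both genes and their LSK levels were below the gauge. Moxd1 was called there (0.46, adjusted p = 0.0142) but not without DN4 array 2 (0.0647) or in a model of all 18 arrays (0.299). Pcsk1 was not called (0.39, adjusted p = 0.107), although it passed without LSK array 3 (0.0403). Among the 6, calls against LSK thus numbered 3 higher and 3 lower in CLP, and 2 higher and 3 lower in DN4. Their directions were largely set by the choice and the LSK split of the genes. Of all genes, 6.54% were called higher and 11.2% lower in CLP, and 11.8% and 14.9% in DN4.

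Relatives of the 6 genes were taken from lists of gene families and tested in DN3 against DN1, the contrast in which the 6 had fallen. The lists hold none of the 6, and the median difference over all genes was 0.02. These lists and those below were chosen with earlier results of these data known, so their counts are not independent of these data. Of all genes, limma called 2.77% lower and 3.92% higher in this contrast. None of 3 measured copper monooxygenases and amidating enzymes was called by limma, and none had an unadjusted p under 0.05. Dbh, Moxd2 and Pam, the peptide amidating enzyme, differed by 0.01, -0.26 and -0.19. Dbh and Moxd2 were below the gauge on every DN1 and DN3 array, so that a fall of these could not be seen. Pam was below it on every DN3 array and not above it on all DN1 arrays. Of 15 prohormone processing genes, of which 6 were below the gauge on every DN1 array, 1 rose and none fell (list median -0.03). The riser was Cpe, carboxypeptidase E, which trims basic residues after convertases such as PCSK1 have cut, at 8.52 in DN3 against 5.21 in DN1 (3.31, SE 0.359, limma adjusted p = 7.37e-06). Cpe was below the gauge on every DN1 and DN2 array, where Pcsk1 was high, and averaged 8.75 in CLP, where Pcsk1 was above the gauge on 2 of 3 arrays. The convertases Pcsk7 (-0.56, adjusted p = 0.161) and Mbtps1 (0.27) did not pass the test. Among 6 peptide transporters and their binding partners limma called none (1 at an unadjusted p under 0.05, list median 0.09). Slc15a3, a lysosomal carrier, differed by -0.49 (limma adjusted p = 0.125). Slc15a2, Slc15a3 and Slc15a5 were below the gauge on every DN1 and DN3 array, so that a fall of these could not be seen.

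Single relatives fell beside Muc13 and Tgm2 in DN3 against DN1, where 2.77% of all genes were called lower and 3.92% higher. Of 9 membrane mucins and sialomucins, of which 7 were below the gauge on every DN1 array, 1 fell and none rose (list median 0.07). That gene was Muc1, an epithelial mucin, at 4.71 in DN3 against 6.45 in DN1 (-1.74, SE 0.176, limma adjusted p = 3.34e-06). It averaged 6.78 in LSK, above the gauge there as Muc13 was. Of 8 transglutaminases, of which 5 were below the gauge on every DN1 array, 1 fell and none rose (list median -0.08). It was F13a1, the catalytic subunit of clotting factor XIII, at 6.88 in DN3 against 9.23 in DN1 (-2.35, SE 0.184, limma adjusted p = 1.53e-07). The mean of F13a1 in LSK was 6.05. Of 8 retinoid response genes, listed because Tgm2 is a known retinoic acid target, limma called none (1 at an unadjusted p under 0.05, list median -0.10), with Dhrs3, a retinal reductase, at 0.68 (adjusted p = 0.0943).

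P4-ATPases moved in both directions. Of 16 measured family members and CDC50 subunits 3 fell and 1 rose (list median -0.03), against 2.77% and 3.92% of all genes. Atp8a2, a flippase best known from nerve cells, was at 9.97 in DN3 against 5.69 in DN1 (4.28, SE 0.216, limma adjusted p = 6.95e-10). It averaged 8.29 in CLP and 10.12 in DN4, so that it was lower in CLP (-1.83, limma adjusted p = 0.000437) where Atp8b4 was higher. Its LSK mean was 5.57. Atp10a (-1.34, limma adjusted p = 1.56e-06), Atp11a (-0.70, adjusted p = 0.0192) and Atp8a1 (-0.63, adjusted p = 0.035) fell with Atp8b4. The number that fell was 1 without DN3 array 2 or 3 or DN1 array 1 or 2.

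**Figure D4:**
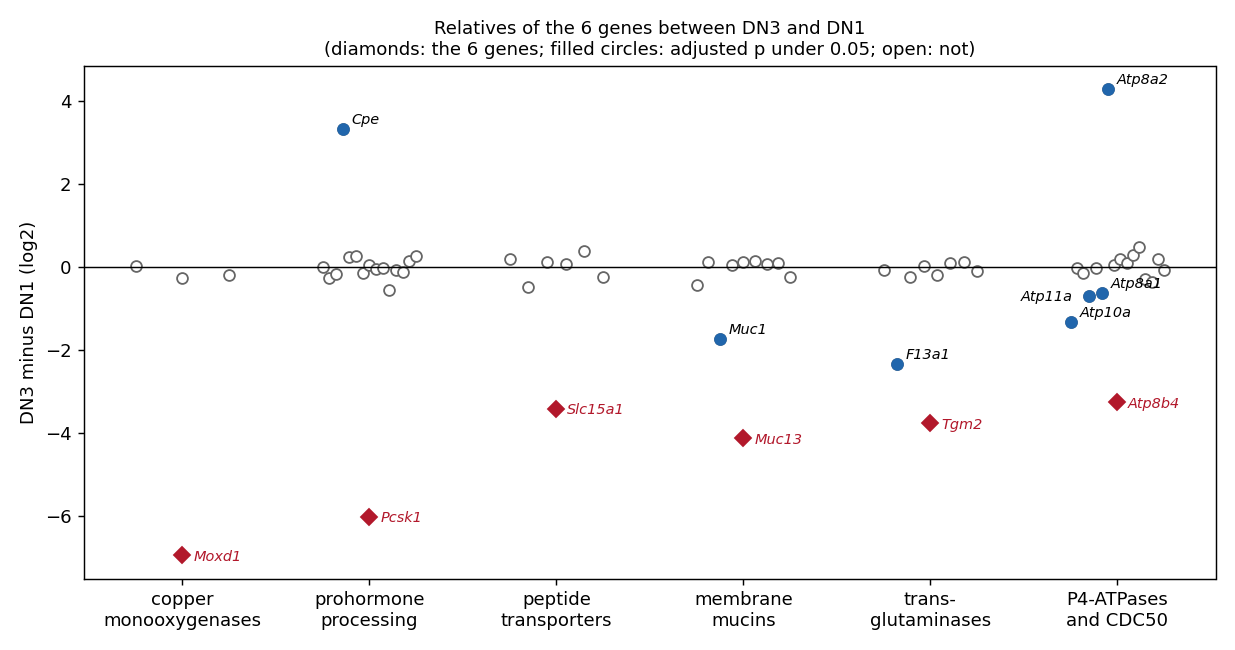
DN3 minus DN1 (log2, vertical axis) for the measured members of 6 gene family lists (horizontal axis); circles are relatives, filled where the limma adjusted p is under 0.05, and red diamonds are the 6 genes, which were chosen on this contrast. Most relatives lie near 0, Cpe and Atp8a2 lie at 3.31 and 4.28, and Muc1 and F13a1 lie at -1.74 and -2.35.

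Of 16 early thymic progenitor genes 2 fell and none rose in DN3 against DN1 (list median -0.05), where 2.77% of all genes were called lower, and these were Kit (-2.71) and Cd44 (-1.97), which the sort itself uses. Tal1 (0.24) and Flt3 (-0.31), next by p, did not pass, and 10 of the 16 were below the gauge on every DN1 array, so that a fall of these could not be seen. In contrast 11 of 14 T commitment and DN3 genes rose and none fell (list median 0.96), where 3.92% of all genes were called higher. Ptcra, the pre-TCR alpha chain, rose by 3.13 (limma adjusted p = 1.09e-09), Dtx1, a Notch target, by 2.98, and Notch3 by 2.35. Il2ra, by which the cells were sorted, rose by 2.98.

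Markers of other cells were read for their own change in the same contrast, where limma called 2.77% of all genes lower and 3.92% higher. Of 12 macrophage markers 1 fell (Mrc1, the mannose receptor, -2.76, limma adjusted p = 1.68e-07), and their summed signal in log2 was 9.69 to 9.78 in DN3 and 10.00 to 10.29 in DN1. On every DN1 and DN3 array 7 of the 12, among them Adgre1, Lyz2, Cd14, Mertk and Fcgr1, were below the gauge, and Cd68 and C1qa were above it. Of 9 B and plasma cell markers 1 fell (Jchain, -4.43), with a summed signal of 8.94 to 9.08 in DN3 and 9.66 to 9.99 in DN1. Ms4a1 and Ebf1 were below the gauge in both, and Mzb1 and Sdc1 were above it on every array of both. Pax5 and Jchain were above it on every DN1 array. H2-Ab1 (-2.24) and Ccr7 (-1.13) fell among 9 dendritic cell markers, a count of 1 without DN3 array 1 or DN1 array 3. The sums of these markers were 10.65 to 10.92 in DN3 and 10.84 to 11.36 in DN1. Itgax, Flt3 and Xcr1 were below the gauge, and Bst2, Irf8, Ccr7 and H2-Ab1 were above it on every DN1 and DN3 array. Among 9 NK and innate lymphoid markers Rora, Klrd1 and Zbtb16 fell (-0.70 to -0.99), with sums of 9.68 to 9.82 in DN3 and 9.74 to 9.86 in DN1. Klrd1, Ncr1, Klrb1c and Eomes were below the gauge on every DN1 and DN3 array, and Rora and Zbtb16 on every DN3 array. The called differences thus reach below the gauge and depend on the floor. Tbx21, Id2 and Gata3 were above it on every DN1 and DN3 array. Limma called 0 of 10 granulocyte and mast cell markers (2 at an unadjusted p under 0.05), with sums of 9.24 to 9.60 in DN3 and 9.58 to 9.81 in DN1. Epithelial markers, listed since several of the 6 genes are known from gut, gave 1 rise among 15 (Cdh1, 1.06), with sums of 10.23 to 10.41 in DN3 and 10.15 to 10.40 in DN1 and Epcam, Vil1, Cdx1 and Cdx2 below the gauge. Cdh1, Krt8, Lgals4, Cldn3 and Cldn4 of that list were above the gauge on every DN1 and DN3 array. Thymic epithelium and stroma markers gave 1 rise among 11 (Col1a2, 1.00), with sums of 10.45 to 10.47 in DN3 and 10.38 to 10.68 in DN1. Where a list moved with the 6 genes, its part in their fall was not tested.

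The genes whose profile was most like the mean of the 6 were found over the 15 lymphoma arrays among 710 named genes with an SD of at least 0.5. Likeness was Pearson's r, a description without a test, since these arrays share 5 groups and the profile itself was picked. Igfbp4, an IGF binding protein, came first (r = 0.994), with means of 10.76 (DN1), 9.82 (DN2), 6.74 (DN3), 6.51 (DN4) and 8.03 (CLP). Next were Sgk1, a serum- and glucocorticoid-induced kinase (0.99), Rere, a nuclear corepressor (0.985), and Il21r, the IL-21 receptor (0.985). Vim, the filament protein vimentin (0.985), Dap (0.984), Lgals1, or galectin-1 (0.979), P2ry2, a receptor for extracellular nucleotides (0.979), Map3k8, a kinase (0.976), and Il4ra, the IL-4 receptor alpha chain (0.975), completed the 10. Gene by gene, Moxd1 was most like Sgk1 (0.985), Pcsk1 like Map3k8 (0.99), Slc15a1 like Stx7 (0.983), Muc13 and Tgm2 like Igfbp4 (0.993 and 0.996), and Atp8b4 like Cd44 (0.986). Kit was among the 3 most like Muc13 (0.985). Cd44 and Kit are sort markers. The 10 genes were not alike in LSK: Sgk1 was lower there (6.39) than in any lymphoma fraction, and Il4ra higher (10.86) than in DN1 (9.64).

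**Figure D5:**
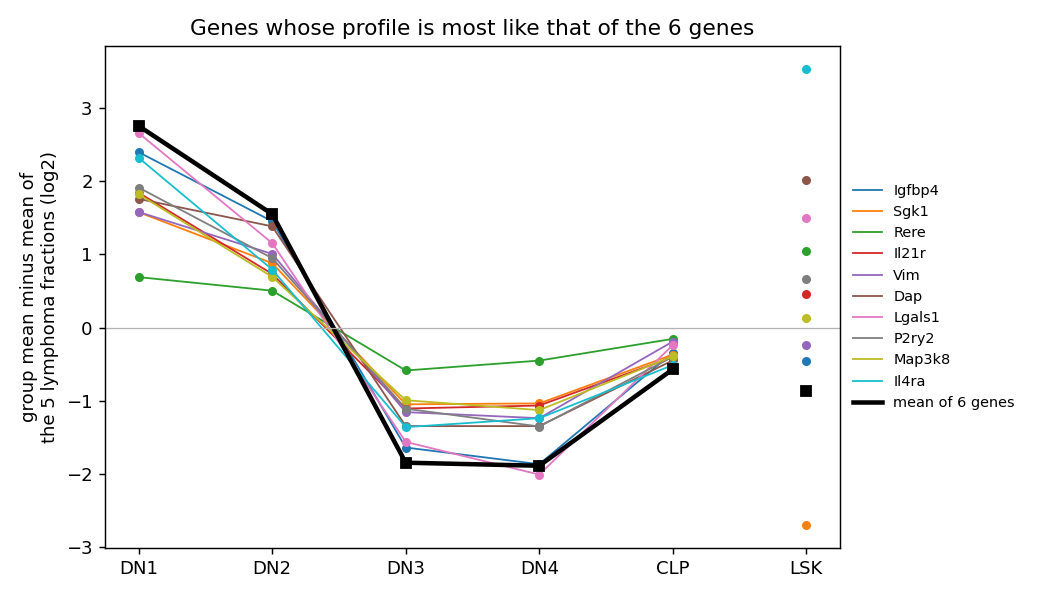
Group mean minus the mean of the 5 lymphoma fractions (log2, vertical axis) in the 6 groups (horizontal axis) for the 10 genes most like the mean of the 6 (coloured) and for that mean (black); LSK points are unconnected because LSK was not used to find the genes. All lines are high in DN1 and DN2, low in DN3 and DN4 and between these in CLP, while the LSK points run from Sgk1 at the bottom to Il4ra at the top.

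Chromosomal neighbours were looked up after the values were seen. Of the 24 nearest measured protein-coding genes, 2 on each side of each of the 6, limma called 3 lower and none higher in DN3 than in DN1, where it called 2.77% of all genes lower and 3.92% higher (median difference 0.06). Stx7, an endosomal SNARE protein next to Moxd1, was at 7.10 in DN3 against 8.97 in DN1 (-1.87, SE 0.149, limma adjusted p = 1.89e-07), and at 8.75 in LSK, where Moxd1 was below the gauge. Erap1, a peptidase that trims MHC class I peptides, and Cast, the calpain inhibitor, lie beside Pcsk1 and fell by 0.60 and 0.68 (adjusted p = 0.00414 and 0.0172). Both neighbours of Moxd1 on its other side, Ccn2 and Enpp3, differed by 0.10 and 0.05 and were not called.

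Promoters were compared because the 6 genes fall together. RefSeq sequence of build GRCm38.p6 was at hand for 5 of them, with 2 starts for Muc13, and the 250 bases before each start were searched on both strands. The motif of RUNX was searched as TGTGGT and also as TGCGGT, that of GATA factors as AGATAA and also as TGATAA, and that of RBPJ, the Notch effector, as TGGGAA. The AP-1 motif was TGANTCA, the STAT motif TTCNNNGAA, the box of TATA promoters TATAAA, the ETS motif GGAAGT and the E-box CANNTG. The cyclic AMP element (CRE), added after the sequences were seen, was TGACGTCA. Below, the sequences with a match other than an E-box are given 5′ to 3′, for Muc13 the first start, with the matches in capitals.
Moxd1 (chr10:24223267-24223516, plus strand): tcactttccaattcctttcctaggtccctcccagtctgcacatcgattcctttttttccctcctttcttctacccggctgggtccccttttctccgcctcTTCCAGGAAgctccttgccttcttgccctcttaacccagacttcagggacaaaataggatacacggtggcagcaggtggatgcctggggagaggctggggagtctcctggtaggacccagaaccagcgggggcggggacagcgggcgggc
Pcsk1 (chr13:75089607-75089856, plus strand): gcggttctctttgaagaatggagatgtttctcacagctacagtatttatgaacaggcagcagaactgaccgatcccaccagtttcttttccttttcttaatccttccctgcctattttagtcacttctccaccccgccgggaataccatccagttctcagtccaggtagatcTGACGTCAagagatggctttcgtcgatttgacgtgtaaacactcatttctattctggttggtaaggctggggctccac
Muc13 (chr16:33793787-33794036, plus strand): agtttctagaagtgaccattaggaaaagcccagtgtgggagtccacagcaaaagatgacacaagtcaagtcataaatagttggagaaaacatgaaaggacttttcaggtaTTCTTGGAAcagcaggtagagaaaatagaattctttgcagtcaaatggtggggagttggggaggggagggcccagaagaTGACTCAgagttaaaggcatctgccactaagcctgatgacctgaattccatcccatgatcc
Atp8b4 (chr2:126491554-126491803, minus strand): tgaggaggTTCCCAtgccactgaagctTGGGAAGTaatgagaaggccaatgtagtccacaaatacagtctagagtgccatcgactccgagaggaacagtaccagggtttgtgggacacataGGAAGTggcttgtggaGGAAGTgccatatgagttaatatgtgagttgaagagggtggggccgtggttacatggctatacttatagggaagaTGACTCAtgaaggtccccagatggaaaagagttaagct

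No motif was found in all of these genes. An AP-1 match stood before Muc13, 61 to 55 bases ahead of the first start and 179 to 173 ahead of the other, and before Atp8b4, 38 to 32 bases ahead, against 6.75% of 32851 promoters in the table. The STAT pattern stood before Moxd1 (150 to 142 bases ahead) and Muc13 (140 to 132), against 7.02% of promoters. The CRE stood before Pcsk1 alone, 78 to 71 bases ahead, against 1.55%. Atp8b4 held 2 RBPJ matches (21.6% of promoters have any) and 3 ETS matches (19.7%), of which 1 of each overlap in a single run of capitals. RUNX, GATA and TATA letters, present in 18.6%, 16.6% and 12.4% of promoters, were in none of the 6 windows, and E-boxes, present in 66.2%, were in 5 of 6. Slc15a1 held E-boxes only. These are matches of letters, not binding sites.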

How the data were processed

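RNA of 18 samples was measured on Affymetrix arrays, 3 per group. The deposited values are log2 signals made by the authors with RMA from the oligo package, per the submitters' processing notes; versions and genome build are not given in the sources used here. No further normalization was applied. Of 41345 probe sets, 23521 carry 1 symbol, 1814 several and 16010 none, and the last 2 kinds were left out. The brightest probe set by mean over 18 arrays stood for each of 22180 genes.

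Genes were tested with limma 3.58.1 in R 4.3.3 (lmFit and eBayes, two-sided, p values adjusted by Benjamini-Hochberg over the 22180 genes, threshold 0.05). Contrasts among fractions came from 1 model of 15 lymphoma arrays, those with LSK from the 6 arrays compared. Named are the 6 genes, up to 4 members per list by smallest p, the genes of most similar profile, sort markers and, as exceptions, genes that fill in a role or count. The 6 genes and the 16 lists were chosen with earlier results of these data known. Alternatives were a filter (above the array median in 3 arrays, passed by all 6 genes), quantile normalization, the mean of probe sets, a trended robust prior, the replicate block, other sets of arrays and leaving out each array. The code was tested on simulated data. The number of arrays limits the precision.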

Additional observations from a re-analysis of the deposited data

Results flagged for a closer look

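Each of these results is a gene whose difference from the shared LSK arrays was not the same in CLP and DN4, by the limma test of CLP minus DN4 itself. That difference was 1.37 for Pcsk1 (adjusted p = 0.0312), 1.60 for Slc15a1 (1.83e-05), 1.63 for Muc13 (6.64e-05), 1.36 for Tgm2 (0.000914) and 0.66 for Atp8b4 (0.0387). Since DN4 hardly differed from DN3, these calls are not independent of the choice of the genes for low DN3 values. All 3 CLP arrays lay above all 3 DN4 arrays for each of the 5 genes, but also for Moxd1, which was not called, and for 7.37% of all genes. Of the 13 alternatives, the call was lost in 6 for Pcsk1 and in 8 for Atp8b4.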

How the results depend on the processing

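Slc15a1, Muc13 and Tgm2 kept their calls in CLP against DN4, and Slc15a1, Muc13, Tgm2 and Atp8b4 theirs against LSK, under every alternative run. Gene counts moved more. CLP against DN4 called 237 genes, 19 with the compared arrays alone, 360 with the replicate block and 65 to 1217 leaving out 1 array (lowest without DN4 array 1, highest without CLP array 1). CLP against DN3 called 243, 11 with the compared arrays alone and 53 to 653 leaving out 1 array (DN3 array 1 and CLP array 1). CLP against LSK called 3928, 6140 with all 18 arrays in 1 model and 2559 to 4598 leaving out 1 array (LSK array 1 and CLP array 1), and DN4 against DN3 called 1, or 1 to 2 leaving out 1 array. Counts for DN4 against LSK and DN3 against DN1 stayed within 1.5 times. DN4 minus DN3, near 0 and never called for the 6 genes, changed sign for Moxd1 under quantile normalization (-0.00318), and leaving out 1 array ranged from -0.15 to 0.12 for Moxd1, -0.091 to 0.19 for Pcsk1, -0.11 to 0.13 for Slc15a1 and -0.11 to 0.18 for Muc13. The cause of these changes was not tested, beyond the loss of arrays itself. Replicate numbers do not pair the samples by the labels: deviations of same-numbered lymphoma arrays correlated at -0.19 to 0.35 over 30 pairs, 21 above 0.1, and 11 of 15 arrays correlated best with their own number. With the replicate block Pcsk1 was called in DN4 against LSK (0.39, limma adjusted p = 0.0391).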
